A study of Mus musculus with 2 samples.

Results

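Cycling CD8 T cells are the CD8+ T cells of CT26 tumors whose transcriptome holds genes of cell division. They were selected on their own counts of unique molecular identifiers (UMIs), the distinct captured transcripts of a gene, in the 2 single-cell libraries of the study. A barcode was kept with mitochondrial UMIs under 20%, at least 2 UMIs of *Cd3d*, *Cd3e* and *Cd3g* together, at least 1 UMI of *Cd8a* or *Cd8b1*, under 5 UMIs per 10000 of *C1qa*, *C1qb* and *C1qc*, and under 20 per 10000 of *Lyz2*. It was called cycling when *Mki67*, *Top2a*, *Birc5*, *Ube2c*, *Pclaf* and *Nusap1* together reached 10 UMIs per 10000 UMIs of the cell. The rule found 342 cells among the 13939 cells that passed the mitochondrial limit, 119 in the untreated (UT) library and 223 in the BUP-treated library. The 832 CD8 T cells below the threshold, 305 UT and 527 BUP-treated, are called other CD8 T cells here.

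Both libraries came from subcutaneous tumors of CT26, a mouse colon carcinoma line, grown in male BALB/c mice of 6 to 8 weeks. UT mice received nothing, and BUP-treated mice received a hydrogel with the local anesthetic bupivacaine at 40 mg/kg of the drug (BUP-Gel); no gel without drug was sequenced among the libraries used here. Each library pooled 3 tumors, and sorted live CD45+ and CD45- cells were mixed again before capture with the 10X Genomics 5' chemistry. Each condition therefore has 1 library, the spread between mice is unknown, and treatment, mice and capture lane cannot be told apart. No test between conditions was possible, and the 95% intervals given cover counting error only. They are exact, apart from those of differences of shares, which combine the limits of both shares.

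A CD8 T cell that meets its antigen can divide several times within days, and dividing cells in tumors are the source of new effector and exhausted cells. A dividing cell first licenses and copies its DNA with MCM helicases, polymerases and enzymes that make nucleotides, packs the copy with new histones, and then separates the chromosomes with the spindle, cyclin B with *Cdk1* and the anaphase-promoting complex. The genes of these steps are transcribed in waves, those of replication largely by E2F factors and those of mitosis largely through the CHR and CCAAT elements of their promoters.

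Of the genes that the rule itself used, whose presence is no finding, *Cd8a*, the CD8 alpha chain, had a UMI in 115 of 119 UT and 208 of 223 BUP-treated members. *Mki67*, the proliferation antigen Ki-67, had one in 118 and 217, and *Pclaf*, a clamp-associated factor of replication, in 110 and 205. Outside the rule, *H1f5*, a linker histone, had a UMI in 109 and 200. A UMI of *Cd4* was found in 9 UT and 6 BUP-treated members and of *Foxp3* in 2 and 2. Of markers of other cells, the B cell gene *Ms4a1*, the plasmacytoid gene *Siglech* and the NK receptor gene *Klra8* were at 0 UMIs in every member, which allows up to 3 UMIs over each group. Other markers of these lists were present. Of 7 NK markers 3 were at 0 in UT and 1 in BUP-treated members, and of 7 B cell and plasmacytoid markers 6 and 3.

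Members were deeper than other CD8 T cells. Their median was 12450 UMIs and 3821 genes in UT and 11225 UMIs and 3555 genes in BUP-treated tumors, against 7041 UMIs and 2647 genes and 6464 UMIs and 2409 genes in other CD8 T cells. In all, members held 1619834 UT and 2677085 BUP-treated UMIs. The libraries shared 76 barcodes of 7556 and 7221, no barcode was a member in both, and 4 members had a barcode also present in the other library. The 21 macrophage markers summed to 6716 CPM (UMIs per 1000000 UMIs of the class) in UT and 7505 in BUP-treated members, to 10338 and 11437 in other CD8 T cells, and to 70145 and 69484 in C1q macrophages, cells with at least 20 UMIs per 10000 of the C1q genes and under 2 CD3 UMIs. None of the 21 was at 0. In members most of these UMIs were of the ferritin genes *Fth1* and *Ftl1*, which T cells also use, and of *Spp1*, which stood at 1724 and 1984 CPM in members against 1625 and 1681 in C1q macrophages. *Lyz2* stood at 165.4 and 137.8 CPM in members against 17712 and 15959. Of the other lists, 7 neutrophil markers summed to 410 and 409 CPM in UT and BUP-treated members, 7 dendritic markers to 14.2 and 37.7, 7 B cell and plasmacytoid markers to 0.617 and 4.86, 10 tumor and fibroblast markers to 135 and 155, and 5 erythroid markers to 169 and 3.74. In NK markers (317 and 271 CPM) and in CD4, regulatory and gamma-delta T markers (447 and 414), *Klri2*, *Eomes* and *Gzma* and *Ikzf2* and *Il2ra*, which CD8 T cells also use, held most UMIs. *Lyz2*, which the rule limits, had a UMI in 98 of 119 and 127 of 223 members.

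The share of CD8 T cells in cycle was close in the libraries. Of 424 UT CD8 T cells 28.1% (23.8 to 32.6) were cycling, and of 750 BUP-treated CD8 T cells 29.7% (26.5 to 33.1). The difference was 1.67 percentage points, with an interval of -3.92 to 7.10 that holds 0. Over all cells, in contrast, cycling CD8 T cells made up 1.66% (1.38 to 1.98) of UT and 3.29% (2.88 to 3.74) of BUP-treated cells, and CD8 T cells as a whole 5.92% (5.38 to 6.49) and 11.1% (10.3 to 11.8). With no C1q UMI allowed and *Lyz2* under 5 per 10000 the order of the cycling share turned, at 33.1% of UT and 29.1% of BUP-treated CD8 T cells. The shares of all cells follow how the sorted CD45+ and CD45- fractions were mixed again, for which the sources give different proportions. Among C1q macrophages the share with the same cycle level was 14.9% (13.04 to 16.98) of 1306 in UT and 9.11% (6.90 to 11.7) of 582 in BUP-treated tumors, 5.82 points lower in the latter (-8.84 to -2.58).

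Cells lay on both sides of the threshold, and the cycling share of CD8 T cells moved with it. At a threshold of 5 per 10000 the share was 33.7% in UT and 33.5% in BUP-treated tumors. At 20 per 10000 it was 22.2% and 24.4%. The median member held 39 UMIs of the 6 cycle genes in UT and 41 in BUP-treated tumors, or 34.1 and 35.9 per 10000, with quartiles of 23.4 to 47.9 and 24.5 to 47.6 and highest values of 71.5 and 95.5. Just inside, the lowest members had 10.2 (16 UMIs) and 10.1 (10 UMIs) per 10000, and just outside the highest other cells had 9.68 (40 UMIs) and 9.27 (6 UMIs). Between 10 and 12 per 10000 lay 8 UT and 5 BUP-treated members, and between 8 and 10 lay 9 and 14 other cells. No cycle UMI at all was seen in 124 of 305 and 283 of 527 other CD8 T cells. Beside the threshold, 1 member of each library was called from at most 2 cycle UMIs.

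**Figure D1:**
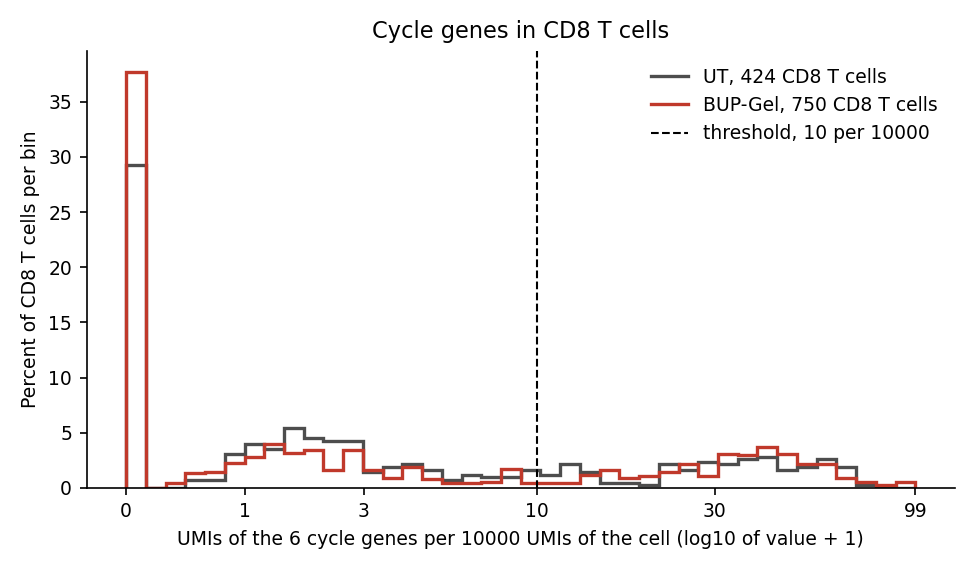
Share of CD8 T cells per bin (percent, y) against the UMIs of the 6 cycle genes per 10000 UMIs of the cell (x, log10 of value + 1), for 424 UT (grey) and 750 BUP-treated (red) CD8 T cells. The dashed line is the threshold of 10 per 10000. On this log axis most cells of both libraries lie near 0, a separate group of members lies around 34.1 and 35.9, and few cells lie near the line.

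The gene lists below compare members with other CD8 T cells, a contrast that the rule itself made, so their values only describe the members. A gene was counted with at least 100 UMIs over both classes and called at 2-fold. In UT 287 of 6021 genes were at least 2-fold higher in members (4.77%) and 115 at least 2-fold lower (1.91%). In BUP-treated tumors these were 374 of 7602 (4.92%) and 221 (2.91%). Of 6001 genes counted in both libraries 243 were higher and 25 lower in both.

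Among the cycle lists outside the rule genes, mitotic kinases and cyclins stood furthest from the other CD8 T cells. Their median log2 ratio was 3.90 in UT and 4.01 in BUP-treated tumors, against 3.23 and 3.56 for the spindle list and 2.74 and 3.67 for histone genes. All 45 counted genes of spindle, kinetochore and chromosome structure were at least 2-fold higher in UT members and all 49 in BUP-treated members, and so were all 19 and all 23 mitotic kinases and cyclins. Summed, the spindle list had 12391 CPM in UT members against 1966 in other UT cells, and 13764 against 1852 in the BUP-treated library. *Cenpf*, a kinetochore protein, stood at 284.6 and 323.9 CPM in members against 8.10 and 8.71 in other cells. *Ccna2*, the cyclin of S and G2 phase, stood at 287.1 and 266 against 6.94 and 7.80. *Plk1*, a kinase of mitotic entry, stood at 96.9 and 97.9 against 1.93 and 3.21, and *Cdc20*, the activator of the anaphase-promoting complex, at 150.6 and 191.3 against 11.2 and 7.57. Outside the lists the genes with the largest step included *Mxd3*, a MYC-network repressor, *Neil3*, a DNA glycosylase, *Cdca5*, which guards sister cohesion, *Aspm* of the spindle poles, *Kifc1*, *Shcbp1*, *Cit*, *Ska1* and *Gm20628*. Their log2 ratios lay between 4.02 (*Ska1*) and 5.43 (*Mxd3*) in UT and between 4.04 (*Ska1*) and 5.59 (*Neil3*) in BUP-treated tumors.

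Replication and nucleotide synthesis stood less far apart. Of the replication licensing and fork genes 24 of 38 in UT and 25 of 40 in BUP-treated tumors were at least 2-fold higher in members, with sums of 4092 and 3775 CPM against 1910 and 1632. *Rrm2*, the cell-cycle subunit of ribonucleotide reductase, stood at 291.4 and 305.9 CPM against 15.4 and 13.99. *Mcm5*, part of the replicative helicase, stood at 137.7 and 124.8 against 51.3 and 49.3. *Mcm2* of the same helicase stood at 52.5 and 51.2 CPM in members and at 49.4 and 37.4 in other cells, so helicase subunits differed from each other. Nucleotide synthesis genes passed 2-fold in 10 of 19 and 8 of 19 cases.

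Among the cycle lists, histone genes had the largest summed difference after the spindle list. The 52 listed histone genes, most of the replication-dependent kind whose messages largely lack the poly(A) tail that the capture uses, summed to 7666 CPM in UT and 8719 in BUP-treated members, against 1823 and 1795 in other cells, and 18 of 19 and 21 of 23 counted genes passed 2-fold. *H1f5* (ENSMUSG00000058773, GRCm39 chr13:21964053-21964795, minus strand) stood at 1022 (973.1 to 1072) and 1208 (1166 to 1250) CPM in members and at 37.0 and 40.8 in other CD8 T cells. *H1f4*, another linker histone, stood at 734 and 913.7 against 137.7 and 130.9.

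**Figure D2:**
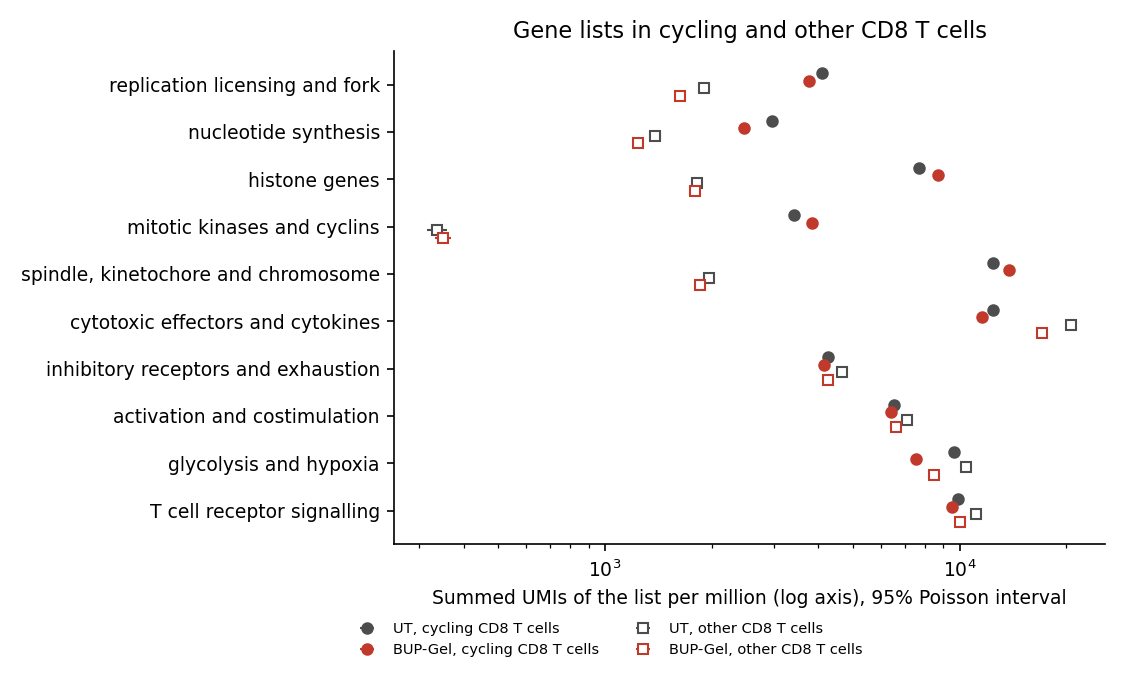
Summed CPM of 10 gene lists (x, log axis) in UT (grey) and BUP-treated (red) cycling (filled circles) and other (open squares) CD8 T cells, with exact 95% Poisson intervals, mostly narrower than the symbols. The mitotic list lies at 3421 and 3839 in members against 337 and 349 in other cells, and the cytotoxic list at 12440 and 11537 against 20637 and 17085.

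The promoters of these lists held different motifs. Promoters were taken as 1 per gene symbol with 1 chromosome left out, and the genes of the lists were matched among these. Of the window from 250 bases before to 50 after the start in RefSeq (GRCm38.p6), 12 of 19 matched mitotic kinase and cyclin genes (63.2%) and 31 of 41 spindle genes (75.6%) held a CHR, spelled TTTGAA, or TTTAAA in its variant, on either strand, against 6 of 34 replication genes (17.6%), 29 of 47 histone genes (61.7%) and 27.8% of all 27025 promoters. An E2F motif, spelled TTNNCGC with G or C at each N, on either strand, stood in 22 of 34 replication promoters (64.7%), 2 of 19 mitotic (10.5%), 13 of 41 spindle (31.7%), 15 of 47 histone (31.9%) and 9.69% of all promoters. CCAAT on either strand stood in 84.2%, 70.7% and 67.6% of mitotic, spindle and replication promoters, in 40 of 47 histone promoters (85.1%) and in 37.9% of all. An E2F match can share bases with another and with a reversed CCAAT. The 200 bases before the start are shown for 1 gene of each group as examples of these motifs, picked with their motifs known: *Mki67* (chr7:135716380-135716579, minus strand), *Cdc20* (chr4:118437344-118437543, minus), *Mcm5* (chr8:75109309-75109508, plus) and *H1f5* (chr13:21780626-21780825, minus), in GRCm38.p6. Capitals mark the motifs named above, read 5' to 3' on the strand of the gene.
Mki67: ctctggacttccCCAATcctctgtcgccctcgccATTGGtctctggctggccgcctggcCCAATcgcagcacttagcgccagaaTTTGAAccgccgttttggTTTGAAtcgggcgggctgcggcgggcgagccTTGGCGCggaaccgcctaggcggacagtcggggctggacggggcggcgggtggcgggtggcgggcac
Cdc20: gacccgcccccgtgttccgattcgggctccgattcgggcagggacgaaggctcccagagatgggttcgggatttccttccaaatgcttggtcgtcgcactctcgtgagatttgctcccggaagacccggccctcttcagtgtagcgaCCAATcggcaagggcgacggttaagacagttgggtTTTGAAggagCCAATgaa
Mcm5: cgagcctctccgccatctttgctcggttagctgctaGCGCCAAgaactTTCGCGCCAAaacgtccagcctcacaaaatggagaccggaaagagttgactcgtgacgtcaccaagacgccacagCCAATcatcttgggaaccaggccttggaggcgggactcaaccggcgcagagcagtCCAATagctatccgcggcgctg
H1f5: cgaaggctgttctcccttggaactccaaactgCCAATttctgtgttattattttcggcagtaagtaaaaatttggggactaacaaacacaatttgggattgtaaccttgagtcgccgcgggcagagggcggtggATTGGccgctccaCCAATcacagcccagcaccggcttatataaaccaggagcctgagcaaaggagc
*Mki67* holds 2 CHR, 3 CCAAT and 1 E2F match, *Cdc20* 1 CHR and 2 CCAAT, *Mcm5* 2 CCAAT and 3 E2F matches that partly share bases, and *H1f5* 3 CCAAT in these 200 bases. A match is a run of letters and not a measured binding site.

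Members differed in the wave they were in. Per cell, the 74 mitotic and spindle genes had a median of 164 UMIs per 10000 in UT (quartiles 122.2 to 202.9) and 182 in BUP-treated members (133.7 to 224.5), against 17.98 and 17.9 in other cells. The 44 replication genes had medians of 38.4 (27.4 to 59.1) and 34.6 (21.4 to 50.1). The 46 replication-type histone genes had medians of 35.7 (21.7 to 56.7) and 46.8 (23.6 to 72.02), against 3.29 and 2.74. Replication UMIs made up a median of 18.8% of replication and mitotic UMIs together in UT and 16.1% in BUP-treated members. Across members replication and mitotic levels ran slightly against each other (Spearman rho -0.20 over 119 UT and -0.16 over 223 BUP-treated cells), and histone levels ran together with mitotic levels (0.50 and 0.28) and with replication levels (0.21 and 0.30). These are descriptions over cells of 1 library each, which share depth and the fixed total of 10000.

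**Figure D3:**
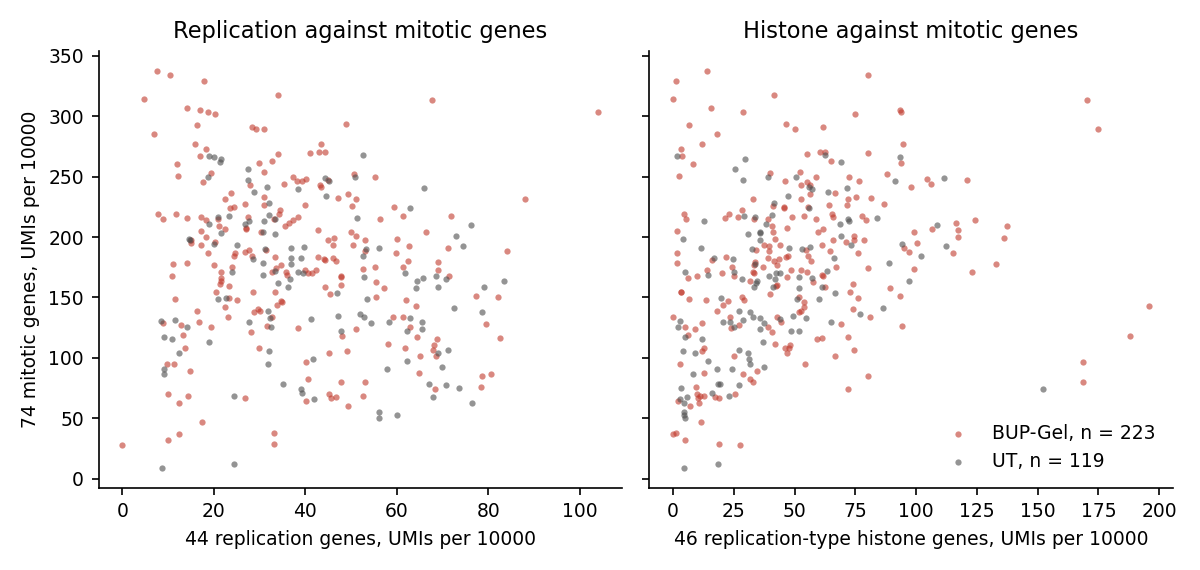
UMIs per 10000 of the 74 mitotic genes (y) against 44 replication genes (left) and 46 histone genes (right) in each of 119 UT (grey) and 223 BUP-treated (red) cycling CD8 T cells. The clouds of both libraries overlap, with medians of 164 and 182 for mitotic genes and of 35.7 and 46.8 for histone genes.

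Next, BUP-treated members were compared with UT members, gene by gene. Ratios were counted from 100 UMIs of a gene upward, both libraries summed, and called at 1.5-fold, with a conditional exact interval. Of 6020 genes 159 were at least 1.5-fold higher in BUP-treated members (2.64%) and 245 at least 1.5-fold lower (4.07%), with a median log2 ratio of -0.06 over all of them. With median-ratio scaling, which centers the typical gene, these were 207 higher and 186 lower. The leading receptor segments and the median depth of members also differed between the libraries, and their part in the ratios was not tested. One alternative, chosen after the data were seen, left out the members led by *Trbv1* in UT and by *Trbv13-1* in BUP-treated tumors, which kept 87 and 164 members.

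Division genes differed little between the libraries. The 6 rule genes selected the members of both at 1 threshold, so their near levels, with a median log2 ratio of 0.08, are no finding. Among them *Mki67* had 839.6 CPM in UT and 843.8 in BUP-treated members, and *Top2a*, the topoisomerase of chromosome decatenation, 725.4 and 730.3. None of the 41 replication genes or the 24 mitotic kinases and cyclins passed 1.5-fold, with median log2 ratios of -0.10 and 0.11, against -0.06 over all genes. Of 50 spindle genes 1 passed, *Pimreg*, an inhibitor of metaphase exit, at 72.9 and 110.2 CPM (log2 0.60), which stood at 0.16 after each cell was thinned to 2000 UMIs. The 41 replication genes thus lay near the median over all genes, and the 26 tested histone genes lay above it, with a median of 0.33.

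Histone and nucleotide genes held most calls among cycle lists. Higher in BUP-treated members were 4 of 26 histone genes. *H2bc18* had 77.2 CPM in UT and 147.2 in BUP-treated members (log2 0.93) and a UMI in 52.1% and 63.7% of cells, *H2bc13* had 19.8 and 39.97 (1.02; 0.56 after thinning), *H2ac10* 35.2 and 59.0 (0.75) and *H2ac20* 90.1 and 147.9 (0.71). Histone genes have near-identical copies among which reads can be split. With no C1q UMI allowed and *Lyz2* under 5 per 10000, a stricter limit on myeloid RNA, *H2ac10* and *H2ac20* stood at 0.45 and 0.44, under the 1.5-fold line, and *H2bc18* stayed between 0.77 and 1.40 under every alternative.

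Lower in BUP-treated members were 4 of 19 nucleotide synthesis genes. *Atic*, which completes purine synthesis, had 77.8 CPM in UT and 37.0 in BUP-treated members (log2 -1.07). *Gart*, of the same pathway, had 42.0 and 23.5 (-0.83), *Shmt2*, the mitochondrial source of one-carbon units, 105.6 and 58.3 (-0.86) and *Cad*, which starts pyrimidine synthesis, 46.3 and 28.0 (-0.72). The list had a median of -0.30 in members, against -0.06 over all genes, and of -0.14 in other CD8 T cells. The median over all genes was taken in members only. List medians of other CD8 T cells, here and below, therefore have no such value to be read against. *Atic* stayed past 1.5-fold under every alternative, while *Gart* (-0.17) and *Shmt2* (-0.38) did not pass under the stricter myeloid limit, and *Cad* stood at -0.50 at a cycle threshold of 5 per 10000 and at -0.03 after thinning. Of 27 genes of G1 cyclins, inhibitors and E2F, *Ccnd2*, a D cyclin that starts the cycle, had 150.02 and 80.3 CPM (-0.90; -0.58 after thinning, just under the line) and *Ccnd1* 53.7 and 33.2 (-0.69). In *Ccnd1* 5 cells held 81.6% of UT UMIs and 65.2% of BUP-treated UMIs.

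Effector genes were called in both directions. Of 25 tested cytotoxic and cytokine genes 4 were higher and 2 lower in BUP-treated members, with a median log2 ratio of -0.18 in members and -0.28 in other CD8 T cells. *Gzmk* (ENSMUSG00000042385, GRCm39 chr13:113308142-113362442, minus strand), a granzyme of less terminally differentiated effector cells, had 58.7 (47.5 to 71.7) CPM in UT and 106.5 (94.5 to 119.6) in BUP-treated members, a log2 ratio of 0.86 (0.52 to 1.21). A *Gzmk* UMI was found in 34 UT members (28.6% of 119) and in 113 BUP-treated members (50.7% of 223), against 0.766% and 0.687% of C1q macrophages, whose median depths were 13232 and 12300 UMIs. After thinning each cell to 2000 UMIs, with 3 shallower members left out of each library, these shares were 10.3% and 18.2%. Other CD8 T cells went the same way, from 57.9 to 87.1 CPM (log2 0.59). The ratio stayed between 0.78 and 1.45 under every alternative.

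*Ccl4*, a chemokine that draws T cells and myeloid cells, had 261.8 (237.4 to 287.9) CPM in UT and 667.9 (637.3 to 699.6) in BUP-treated members (log2 1.35, 1.20 to 1.51). In other CD8 T cells it had 802.9 and 836.2 (0.06). *Ccl4* thus stood lower in UT members than in other UT cells by 1.62 on the log2 scale and close to the other cells in BUP-treated tumors (-0.32). A UMI was found in 46.2% of UT and 57.4% of BUP-treated members and in 67.6% and 67.0% of C1q macrophages, so the share of cells cannot be read apart from macrophage RNA, whose part in the ratio was not tested. In members 5 cells held 44% of UT and 37% of BUP-treated UMIs, and the ratio lay between 1.04 and 1.57 under the alternatives. *Tnf* had 63.0 and 111.3 CPM (0.82), again with a UMI in more macrophages (60.3% and 65.6%) than members (42.9% and 45.7%). Leaving out the 4% of members with the most *Tnf* gave 0.55 and thinning gave 0.51, both under the line. After thinning, a *Tnf* UMI was found in 12.9% of UT and 12.7% of BUP-treated members.

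Granzymes of the terminal effector kind lay below 1.5-fold here but passed it downward under some alternatives. *Gzmb* had 1227 (1173 to 1282) CPM in UT and 928.6 (892.5 to 965.9) in BUP-treated members (log2 -0.40), in 83.2% and 92.4% of cells. *Prf1*, the pore-forming perforin, had 928.5 and 774.7 (-0.26), *Gzmf* 1751 and 1457, *Ifng* 311.1 and 226 (-0.46), and *Nkg7*, of the cytotoxic granule, 1931 and 1927 (0.00). At a cycle threshold of 5 per 10000 the log2 ratio was -0.73 for *Gzmb*, -1.26 for *Gzmd*, -0.96 for *Gzme* and -0.74 for *Gzmf*. Under the stricter myeloid limit it was -1.04 for *Gzmd*, -1.12 for *Gzme*, -0.85 for *Gzmf* and -0.63 for *Prf1*, and without the leading receptor segments -0.59 for *Gzmb*, -0.81 for *Gzmd*, -1.02 for *Gzme* and -0.66 for *Ifng*. Other alternatives moved the ratios toward 0. *Gzmb* stood at -0.14 without barcodes that held *Cd4* or *Foxp3*. Without the 4% of members richest in each gene the ratio was -0.24 for *Gzmb*, -0.20 for *Gzmd* and -0.23 for *Gzme*. *Gzmg*, *Gzma* and *Xcl1* passed 1.5-fold but on few cells: 5 cells held 81.2%, 97% and 90% of their UT UMIs, and each changed sign under at least 1 alternative.

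Against other CD8 T cells, effector RNA took a smaller part of the members' transcriptome. The cytotoxic list summed to 12440 and 11537 CPM in UT and BUP-treated members and to 20637 and 17085 in other cells, and 6 of 26 and 5 of 25 genes were at least 2-fold lower, with 1 (*Xcl1*) at least 2-fold higher in UT and 0 in BUP-treated tumors. *Gzmd* had 889 and 679.5 CPM in members against 2071 and 1448 in other cells. Members held more UMIs per cell, however, and on that scale the gap was smaller or turned. *Gzmd* had 12.1 and 8.16 UMIs per member against 17.6 and 11.98 per other cell, *Gzmb* 16.7 and 11.1 against 15.9 and 10.8, and *Prf1* 12.6 and 9.30 against 13.5 and 10.6. On the per-cell scale, then, *Gzmb* was at about the level of other CD8 T cells, and on the CPM scale below it. *Ly6e*, an interferon-inducible surface protein, went the other way, with 1209 and 1259 CPM in members against 592.6 and 639.9. The list of type I interferon genes did not, with median log2 ratios of members over other cells of -0.23 in UT and -0.21 in BUP-treated tumors. The residency receptor *Cxcr6* had 243.2 and 278.3 against 538.2 and 410.

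**Figure D4:**
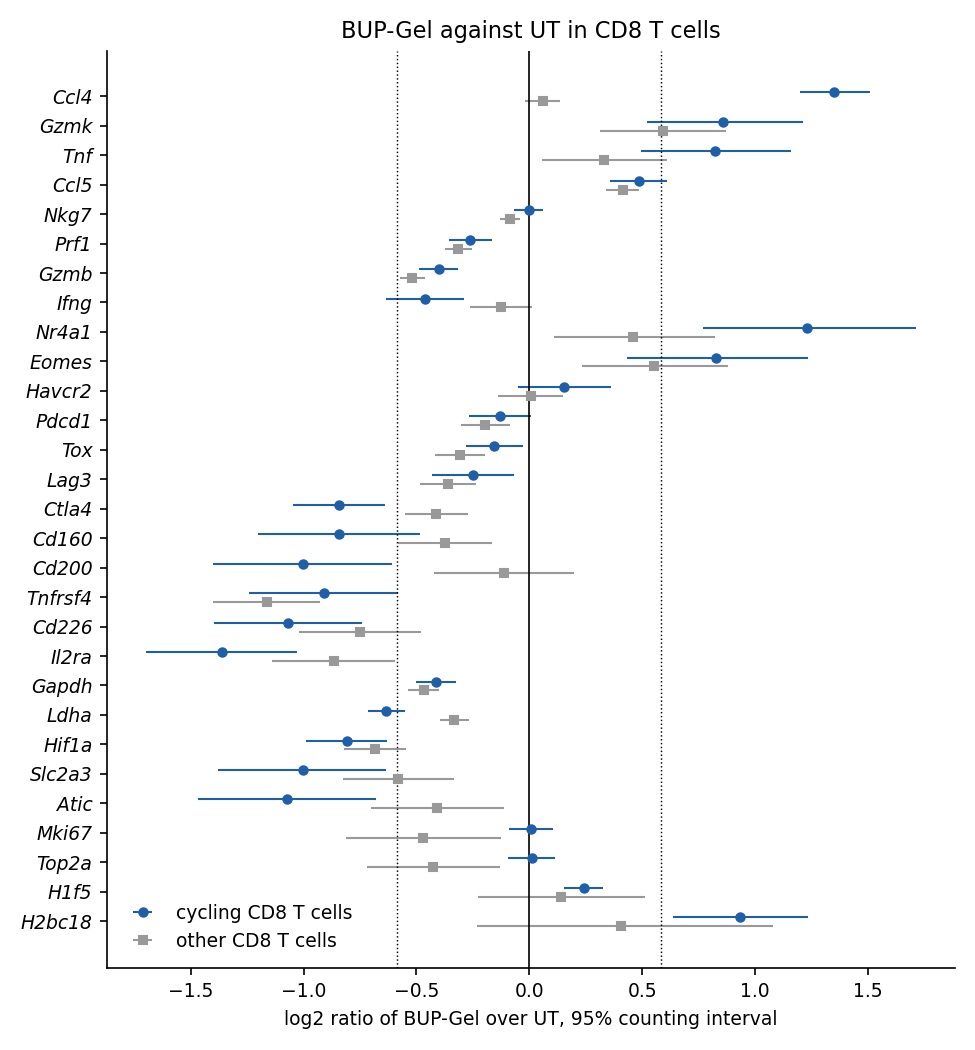
Log2 ratio of BUP-treated over UT CPM (x) for 29 genes (y) in cycling (blue circles) and other (grey squares) CD8 T cells, with exact 95% counting intervals and dotted lines at 1.5-fold. *Ccl4* (1.35), *Nr4a1* (1.23) and *Gzmk* (0.86) lie right of the line and *Il2ra* (-1.36), *Cd226* (-1.07) and *Atic* (-1.07) left of it, while *Mki67* (0.01) and *Top2a* (0.01), which the rule used to select members of both libraries, lie near 0.

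Genes of inhibition and exhaustion were also called in both directions. Of 21 tested genes of inhibition and exhaustion 3 were higher and 3 lower in BUP-treated members, with a median log2 ratio of -0.05. Higher were the transcription factors *Nr4a1*, *Nr4a3* and *Eomes*. *Nr4a1*, induced by antigen receptor signals, had 30.3 (22.4 to 39.99) CPM in UT and 71.0 (61.2 to 81.8) in BUP-treated members (1.23) and 36.7 and 50.4 in other cells (0.46), and its ratio stayed at 1.19 or above under every alternative. An *Nr4a1* UMI was found in 26.9% of UT and 39.9% of BUP-treated members and in 27.4% and 39.9% of C1q macrophages, and the part of macrophage RNA in the members' share was not tested. *Eomes*, a T-box factor of effector and memory cells, had 43.8 and 77.7 (0.83), in 31.1% and 48.9% of members and 4.21% and 3.78% of macrophages. Under the stricter myeloid limit *Eomes* was at 0.48. *Nr4a3* was at 0.59, at the edge of the line, and at 0.30 after thinning.

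*Ctla4*, the checkpoint receptor that competes with CD28, was lower, with 256.2 (232.1 to 282.1) CPM in UT and 142.7 (128.7 to 157.7) in BUP-treated members (log2 -0.84), in 75.6% and 61.4% of cells against 5.90% and 3.95% of macrophages. Other CD8 T cells had 292.1 and 219.4 (-0.41). It stood at -0.44 under the stricter myeloid limit and at -0.36 after thinning, both under the 1.5-fold line. *Cd160* had 85.2 and 47.4 (-0.84) and *Cd200* 74.1 and 37.0 (-1.0), but *Cd160* stood at -0.57 at a cycle threshold of 5 per 10000 and *Cd200* at -0.54 under the stricter myeloid limit. The other main checkpoint genes stayed within 1.5-fold, *Pdcd1* (PD-1) with 443.3 and 404.9 CPM, *Havcr2* (TIM-3) with 187.1 and 208.1, *Lag3* with 268.5 and 226, *Tigit* with 187.1 and 172.2, and *Tox*, a factor of exhaustion, with 530.9 and 476.6.

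Receptors of activation and memory were lower where they were called. Of 25 tested activation and costimulation genes 3 were lower and 0 higher. *Il2ra* (ENSMUSG00000026770, GRCm39 chr2:11647618-11698004, plus strand), the alpha chain of the high-affinity IL-2 receptor, had 119.1 (102.9 to 137.2) CPM in UT and 46.3 (38.5 to 55.2) in BUP-treated members (log2 -1.36, -1.70 to -1.03), in 61 of 119 cells (51.3%) and 67 of 223 cells (30.04%), against 2.07% and 1.37% of macrophages. Other CD8 T cells had 90.7 and 49.8 (-0.87). The ratio lay between -1.56 and -0.74 under the alternatives. *Cd226*, an activating receptor that shares ligands with TIGIT, had 110.5 and 52.7 (-1.07), and *Tnfrsf4* (OX40) 102.5 and 54.5 (-0.91). *Tnfrsf4* stood at -0.50 under the stricter myeloid limit and at -0.51 in a mean over cells, under the line. *Tnfrsf9* (4-1BB) had 763 and 685.8 and did not pass.

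Of 11 tested stemness and memory genes 5 were lower, and 1 higher, which was *Eomes* again. The lower were *Il7r*, the IL-7 receptor (62.4 and 35.9 CPM), *Bach2*, a repressor that restrains effector fate (71.6 and 38.5), the chromatin organizer *Satb1* (129.6 and 81.1), *Ly6c2* (103.7 and 59.8) and *Ccr7*, the lymph node homing receptor (46.3 and 28.0). The list's median was -0.52 in members and -0.38 in other cells. *Ly6c2* stood at -0.18 without the members of the leading receptor segments, and *Ccr7*, with 65% and 72% of UMIs in 5 cells, turned to 0.78 under the stricter myeloid limit. *Il7r* stood at -0.41 after thinning and *Bach2* at -0.56 in a mean over cells. *Tcf7* (TCF-1), the factor of stem-like T cells, was found in 6 UT and 12 BUP-treated members, at 5.56 and 9.34 CPM, too few UMIs for a ratio.

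Glycolysis and hypoxia genes were lower as a list. The 26 listed genes summed to 9675 (9524 to 9828) CPM in UT and 7549 (7445 to 7654) in BUP-treated members. Of 22 tested genes 5 were at least 1.5-fold lower and 0 higher. The median log2 ratio was -0.37 in members, against -0.06 over all genes in members. In other CD8 T cells, where no median over all genes was taken, it was -0.38. *Hif1a*, the oxygen-regulated transcription factor, had 334 (306.4 to 363.4) and 190.5 (174.3 to 207.8) CPM (-0.81), in 89.9% and 74.9% of members and in 73.9% and 74.9% of C1q macrophages. *Slc2a3*, a glucose transporter, had 84.0 and 41.8 (-1.0). *Ldha*, which makes lactate, had 1396 and 900.2 (-0.63), *Pgk1* 606.9 and 398.6 (-0.61) and *Slc16a3*, a lactate exporter, 54.3 and 32.9 (-0.72; -0.58 without barcodes that held *Cd4* or *Foxp3*, just under the line). *Gapdh* had 1167 and 875.2 (-0.41). *Hif1a* and *Slc2a3* stayed past the line under every alternative, while *Ldha* and *Pgk1* lay near it, at -0.53 for *Ldha* under the stricter myeloid limit and at -0.42 for *Pgk1* without the leading receptor segments.

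The lists of T cell receptor signalling, killer receptors, homing, interferon response and stress held 1 or 2 calls each. Over all 6020 genes 2.64% were called higher and 4.07% lower, so these counts are no finding about the lists. Of 23 T cell receptor signalling genes *Sh2d1a* (SAP), an adaptor of SLAM receptors, was higher (143.8 and 224.5 CPM, log2 0.64), but stood at 0.56 under the stricter myeloid limit and at 0.57 with at least 2 CD8 and 4 CD3 UMIs. Of 8 killer receptor genes *Fcer1g*, a signalling chain shared with myeloid cells, was higher (143.8 and 270.4, 0.91), while other CD8 T cells had 349.5 and 361.6, and it stood at 0.50 at a cycle threshold of 5 per 10000. Of 12 homing and residency genes *Rgs2* was higher (113.6 and 187.1, 0.72). Of 19 type I interferon genes *Ly6a* (Sca-1; 257.4 and 107.2, -1.26) and *Parp14* (-0.61; -0.30 without the top Scrublet scores, which rate likely doublets) were lower, and of 29 interferon gamma genes *Gbp5* was higher (19.8 and 33.6, 0.77), though it stood at -0.19 after thinning. A *Ly6a* UMI was found in 52.1% of UT and 23.8% of BUP-treated members and in 58.6% and 40.9% of C1q macrophages, and the part of macrophage RNA in the members' share was not tested. Of 21 stress genes *Ddit3* (CHOP) was higher (45.7 and 84.4, 0.89), and stood at 0.42 after thinning. Markers of other lymphocytes were too few for a share, and *Eomes*, *Gzma* and *Il2ra* among them are also counted in lists above. Of 3 tested NK markers *Klri2* and *Eomes* were higher and *Gzma* lower. Of 3 tested CD4, regulatory and gamma-delta T markers *Trgc2* was higher (log2 1.02) and *Il2ra* lower. The part of other lymphocytes in these calls was not tested.

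Genes of acetylcholine signalling, which the study addressed, were close to absent from the members' RNA. The 26 listed receptor and handling genes summed to 8.64 (4.73 to 14.5) CPM in 11 UT members and 1.87 (0.606 to 4.36) in 5 BUP-treated members, and none reached 100 UMIs. *Chat*, which makes acetylcholine, the muscarinic receptors *Chrm1* to *Chrm5* and *Chrna7* were at 0 UMIs in every member, which allows up to 3 UMIs over each group. A receptor at a low level was not detectable at this depth. By flow cytometry the paper reports CHRM3, CHRM5 and CHRNA7 protein on T cells of CT26 tumors, and protein was not measured here.

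Several of the genes with the largest ratios rested on a few cells. Among genes with at least 50 CPM in 1 library, the 10 highest in BUP-treated members were *Cxcl3* (log2 6.79), *Cxcl1* (3.6), *Ccl2* (2.64), *Ccl7* (2.39), *Ccn1* (2.38), *Slpi* (1.98), *Ccl6* (1.53), *Tmem176b* (1.49), *Ccl4* and *Nfkbid* (1.34). Most are genes of myeloid or stromal cells, and 5 of 223 cells held 98% of the *Cxcl3*, 88% of the *Cxcl1* and 90% of the *Ccl2* UMIs. Without the 4% of members richest in each gene, *Cxcl3* had at most 3 UMIs in either library and no ratio, and *Ccl2* stood at -0.72 and *Ccl7* at -1.67, while *Cxcl1* (2.32), *Tmem176b* (1.66), *Ccn1* (1.27), *Nfkbid* (1.18) and *Ccl4* (1.16) stayed past 1.5-fold. The 10 lowest were the hemoglobin genes *Hba-a1* and *Hbb-bs*, each seen in 3 UT cells and in at most 1 BUP-treated cell, *Gm32647* (-3.36), *Gpm6b*, *Penk*, *Gzma*, *Ms4a4c*, and *H2-Eb1* (-1.53), *H2-Aa* (-1.49) and *Cp* (-1.38). Of the *H2-Aa* UMIs 5 cells held 92% in UT and 84% in BUP-treated members. Without the richest 4% the hemoglobin genes had no ratio and *Cp* stood at 0.87. *Gpm6b* (-2.90), *Penk* (-2.54), *Gm32647* (-2.47), *Ms4a4c* (-2.37), *Gzma* (-2.13), *H2-Eb1* (-1.51) and *H2-Aa* (-1.09) stayed past 1.5-fold there. Of 13 tested macrophage markers, those past 1.5-fold included *Apoe* and *Cd14* upward and *Cd74*, *H2-Aa* and *H2-Ab1* downward, and their part in the ratios of T cell genes was not tested.

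Among genes whose 5 richest cells held under 50% of the UMIs in the library with the higher level, a limit set after the values were seen, the lowest were *Gpm6b*, *Ms4a4c*, *Il2ra*, *Farsb* and *Kit*. *Gpm6b*, a membrane proteolipid, had 67.3 (55.3 to 81.2) CPM in 36 UT and 12.7 (8.80 to 17.8) in 24 BUP-treated members (log2 -2.41). *Ms4a4c* had 59.9 and 19.8 (-1.60), *Farsb*, a tRNA synthetase subunit, 61.7 and 25.8 (-1.26), and *Kit*, the stem cell factor receptor, 54.9 and 25.03 (-1.13). *Tfrc*, the transferrin receptor that imports iron, had 55.6 and 26.1 (-1.09) in members and 34.7 and 31.9 (-0.12) in other CD8 T cells. *Penk*, which encodes the opioid precursor proenkephalin, had 463 (430.5 to 497.4) and 118 (105.4 to 131.8) CPM (-1.97), in 45 and 56 members, with 54% and 59% of UMIs in 5 cells, against 251.5 and 121.3 in other cells and a UMI in 1.45% and 0.344% of macrophages. The highest included *Nfkbid*, an IkB-like regulator (20.4 and 51.5, 1.34, but 0.18 after thinning), *Mt2*, a metallothionein (52.5 and 120.3, 1.20), and *Taf7* (28.4 and 59.0, 1.06). *Klri2*, a killer lectin-like receptor, had 69.8 and 128.1 (0.88; 0.41 after thinning). Of 72 genes past 1.5-fold among the 93 followed through the alternatives, 9 higher and 14 lower genes stayed past it under every one.

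T cells of 1 clone share the variable segments of their receptor, and the leading segments differed between the libraries. The beta chain segment with the most UMIs, at least 2, could be read in 105 of 119 UT and 186 of 223 BUP-treated members, and it held all *Trbv* UMIs in the median cell (100%). In UT members *Trbv1* (GRCm39 chr6:40868163-40868819) led 32 cells (30.5%, 21.9 to 40.2), *Trbv19* 22 (21.0%, 13.6 to 29.99) and *Trbv31* 14 (13.3%). In BUP-treated members *Trbv13-1* (chr6:41092941-41093402) led 59 (31.7%, 25.1 to 38.9), *Trbv29* 32 (17.2%, 12.1 to 23.4), *Trbv2* 23 (12.4%) and *Trbv13-3* 17 (9.14%), while *Trbv1* led 6 (3.23%, 1.19 to 6.89). Other CD8 T cells of each library had the same leading segment, *Trbv1* in 98 of 265 UT cells (37.0%) and *Trbv13-1* in 113 of 410 BUP-treated cells (27.6%). The 3 mice of a library cannot be told apart, so a segment may come from 1 of them.

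The cycling share ranged widely among segments of 1 library, and these differences were not tested. In UT 45.8% (31.4 to 60.8) of 48 CD8 T cells led by *Trbv19* were members, against 24.6% (17.5 to 32.9) of 130 led by *Trbv1*. In BUP-treated tumors 42.1% (30.9 to 53.98) of 76 cells led by *Trbv29* were members, 34.3% (27.2 to 41.9) of 172 led by *Trbv13-1*, 27.4% (18.2 to 38.2) of 84 led by *Trbv2* and 24.5% (13.3 to 38.9) of 49 led by *Trbv19*. The intervals of *Trbv19* and *Trbv1* in UT overlap slightly, and *Trbv19* did not stand high in both libraries. Pairs of a beta and an alpha segment, a closer mark of a clone, recurred. In UT members 17 of 86 cells with both chains (19.8%) paired *Trbv1* with *Trav3-4*, and in BUP-treated members 37 of 153 (24.2%) paired *Trbv13-1* with *Trav3-1* and 27 (17.6%) *Trbv29* with *Trav3-3*. *Trav3* and *Trbv13* segments have near-identical copies, and reads may be split among them. The effective number of beta segments was 5.88 in UT and 6.004 in BUP-treated members, and 5.56 and 7.14 in other CD8 T cells.

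**Figure D5:**
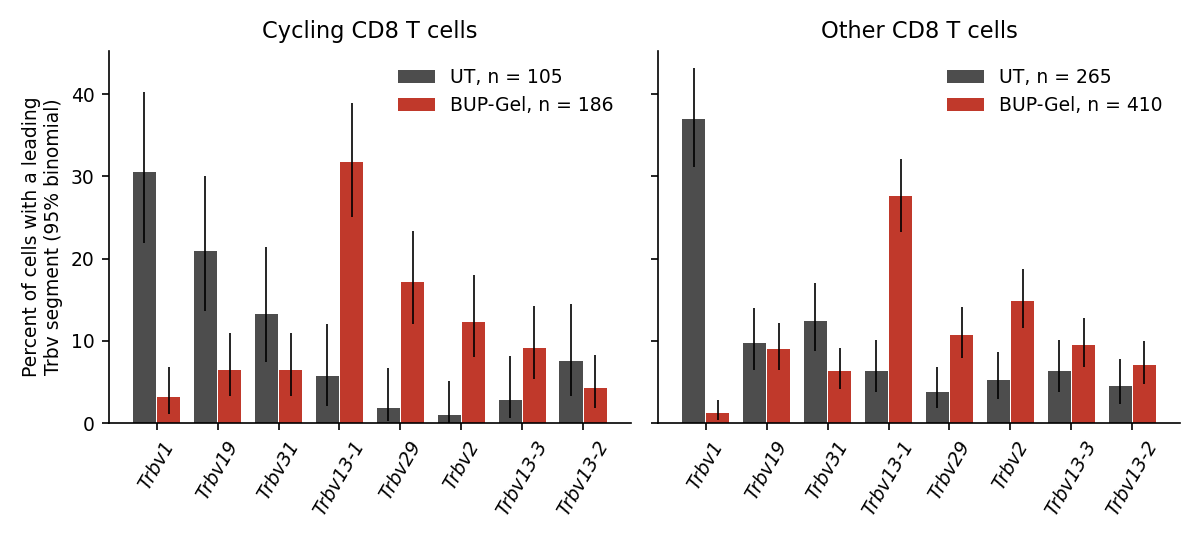
Percent of cells (y, exact 95% binomial interval) whose leading beta chain segment was each of 8 *Trbv* segments (x), in cycling (left; 105 UT, 186 BUP-treated) and other (right; 265 and 410) CD8 T cells. *Trbv1* leads in UT (30.5% and 37.0%) and *Trbv13-1* in BUP-treated tumors (31.7% and 27.6%), in both classes.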

How the data were processed

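Single-cell RNA of CT26 tumors was read from 1 UT and 1 BUP-treated library. The values are the deposited counts, whole UMIs per gene and barcode, which the authors made with Cell Ranger (8.0.1 in the submitters' processing notes) on the mouse genome GRCm39, without normalization; Seurat 5.0.1 is also named there. The 33696 listed genes carry symbols and IDs, and their positions are those of GRCm39. Members were selected on the counts as stated in the report, and the members and gene lists were chosen with earlier results of these data known.

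UMIs were summed over the cells of a class and divided by the class total (CPM), with exact Poisson intervals. Log2 ratios carry an interval from the exact binomial of the summed counts, shares an exact Clopper-Pearson interval, and differences of shares combine the limits of both. A count of 0 was set to 3 UMIs over the group. The confidence level is 95%, and intervals hold counting error alone. Each condition has 1 library of 3 pooled tumors, so no p-value is given. Genes with under 100 UMIs over both groups were not counted.

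Named genes are those of the lists, the 10 highest and 10 lowest ratios with at least 50 CPM in 1 library (receptor and immunoglobulin segments left out), the 10 largest members-over-other ratios outside the lists, and the leading receptor segments; a few of these genes are not reported here. The sources do not say that doublets were removed. Scrublet (scanpy 1.11.5) scores served in 1 alternative, which left out the top 6% of cells. Thinned values draw 2000 UMIs per cell. The ratio calculation was tested on simulated counts. Tables and figures were made with matplotlib 3.10.9, pandas 2.3.3, scipy 1.17.1 and numpy 2.4.6 in Python 3.11.15. Alternatives changed the cycle threshold, cell and gene filters, scaling and depth.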

Additional observations from a re-analysis of the deposited data

Results flagged for a closer look

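In 8 of the genes described here the 2 classes of CD8 T cells went opposite ways between BUP-treated and UT tumors, by at least 1.5-fold each way. Whether the classes differ was not tested, and each library is 1 sample. The log2 ratio of BUP-treated over UT was -1.38 in members and 2.52 in other CD8 T cells for *Cp*, and -0.69 and 0.84 for *Ccnd1*. It was 0.59 and -0.59 for *S100a8*, 0.84 and -1.30 for *Gzmg*, 1.13 and -0.78 for *Apoe*, 1.53 and -1.15 for *Ccl6*, 2.39 and -0.69 for *Ccl7*, and 2.64 and -0.69 for *Ccl2*. In BUP-treated members 5 of 223 cells held between 65.2% (*Ccnd1*) and 95.9% (*S100a8*) of the UMIs of each of these genes. Apart from *Ccnd1* and *Gzmg*, they are mostly known as genes of macrophages, neutrophils or other non-T cells, and the part of RNA from such cells was not tested.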

How the results depend on the processing

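No paired analysis was possible because each condition has 1 library. Values are in the order UT, BUP-treated. The cycling share of CD8 T cells was 33.7% and 33.5% at a threshold of 5 per 10000 and 22.2% and 24.4% at 20, and 33.1% and 29.1% with no C1q UMI and *Lyz2* under 5 per 10000, a limit that kept 49 and 132 members. The share of all cells was 1.996% in UT at 5, 1.31% and 2.70% at 20, 0.684% and 1.95% under the stricter myeloid limit and 1.999% in UT after thinning to 2000 UMIs. The other alternatives left these shares within the counting interval. Genes at least 1.5-fold higher and lower numbered 42 and 44 after thinning, 54 and 48 with at least 300 UMIs, and 2361 and 4546 with at least 1 UMI, where fewer or more genes are counted, and 402 were lower in a mean over cells. Of 72 genes past 1.5-fold, 44 stayed so under the stricter myeloid limit, 52 after thinning, 56 without the 4% of members richest in the gene and 60 to 72 otherwise. The last setting and the one without leading segments were chosen after seeing the data. Among genes past 1.5-fold, log2 ratios that changed sign under the stricter myeloid limit were those of *Xcl1* (4.09), *Gzma* (0.84), *Cxcl1* (-0.46), *Ccl6* (-1.06), *Ccnd1* (1.15), *Ccr7* (0.78), *Apoe* (-0.26), *Cd14* (-0.029), *Cd74* (1.69), *H2-Aa* (2.59), *H2-Ab1* (0.63) and *H2-Eb1* (2.44), and *Slpi* had no value there. Without the richest 4% they were those of *Ccl2* (-0.72), *Ccl7* (-1.67), *Ccl6* (-0.82), *Apoe* (-0.28), *Cd14* (-0.23), *Cp* (0.87) and *S100a8* (-0.16), and *Hba-a1*, *Hbb-bs*, *Cxcl3* and *Slpi* kept at most 3 UMIs in either library and had no value. Without the leading segments they were *Apoe* (-0.045), *Cd74* (1.01), *H2-Aa* (1.97), *H2-Ab1* (0.74), *H2-Eb1* (1.54) and *S100a8* (-2.02), without the top Scrublet scores *Cd74* (0.40), *H2-Aa* (0.79), *Cp* (0.37) and *S100a8* (-0.27), and after thinning *Xcl1* (0.31) and *Gbp5* (-0.19). *Gzmg* was -3.16 at the threshold of 5, *Gzma* 0.036 and *Apoe* -0.068 at 20, and *Ccnd1* 0.33 with at least 2 CD8 and 4 CD3 UMIs. The cause of these changes was not tested. Counts of UMIs set the limit for low genes, and the spread between mice is not measured.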
